A study of Arabidopsis thaliana with 8 samples.

Results

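The genes described here are 129 Arabidopsis thaliana genes known in the array annotation only by a locus tag, the systematic identifier of a gene's position on its chromosome, that stood out in sorted cells of the root cortex. A gene was taken where the cortex mean of log2(intensity + 16) exceeded both the xylem mean and the phloem mean by at least 2, which is 4-fold on that scale. The rule was applied to 11933 probe sets listed with 1 gene and only a locus tag, among 22746 probe sets tested, and the known cortex genes AT1G09750, AT1G62510 and AT5G02000 were left out. AT5G03150 was left out as well, and the annotation lists it by its symbol JKD. The members were thus chosen by their measured array values in cortex, xylem and phloem, and their differences from cortex are given as a description, without a test.

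The series holds 8 arrays of 3 cell populations: cortex (n = 3), differentiating xylem (n = 3), and phloem sieve cells together with companion cells (n = 2). All populations came from wild type Columbia seedlings, 6 days old, kept at 22 degrees Celsius with 16 hours of light. Each was marked by green fluorescent protein, released as protoplasts from root tips of about 1 cm and collected on a cell sorter, and no source used here names the marker lines or their promoters. Arrays of 1 population are labelled as biological replicates, with no further word on separate seedling batches, so the p-values measure the spread between these samples.

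The cortex is the ground tissue between the epidermis and the endodermis. Its cells pass water and mineral ions inwards, store metabolites, and take part in the chemical exchange between root and soil. The xylem and the phloem lie inside the endodermis, in the stele, where xylem cells build secondary walls and sieve and companion cells load and carry sugars.

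The labelled populations were checked against marker genes. Of 5 cortex markers, all measured, the summed intensity was 3848 to 4852 in cortex arrays, 39.4 to 70.8 in xylem arrays and 143 to 154 in phloem arrays, although AT1G62500 was dim in all 3 populations, with 8.72 to 24.2 in cortex. The 5 measured of 12 xylem markers summed to 353 to 567 in cortex, 15372 to 17571 in xylem and 295 to 312 in phloem. For the 5 measured of 11 phloem markers the sums were 279.9 to 339 in cortex, 129.9 to 175 in xylem and 3718 to 4298 in phloem, although OPS was under 16 in all 8 arrays. The 2 measured of 11 endodermis markers summed to 465 to 735 in cortex, 90.02 to 97.1 in xylem and 268 to 302 in phloem. Of these, GSO1 was brightest in cortex, at 385 to 635, whereas AT1G61590 was at 79.8 to 100.1 in cortex and at 132 and 175 in phloem. The 2 measured of 8 epidermis and root hair markers summed to 94.2 to 133 in cortex, 18.1 to 53.0 in xylem and 270.2 to 399.8 in phloem. No root cap marker was measured. The part of endodermis cells in the cortex values was not tested. Array medians ran from 61.4 to 62.4 in cortex, 41.2 to 42.7 in xylem and 70.3 to 73.6 in phloem, and no source used here states how the authors scaled them. In pools of sorted cells, fewer expressing cells and less RNA per cell cannot be told apart.

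The 129 genes made up 1.08% of the locus-tag probe sets open to the rule, against 1.48% of all 22746 probe sets, the share that the rule itself gives. By the same rule 29 of 1580 probe sets with a gene symbol (1.84%) and 168 of 8730 probe sets without a listed gene (1.92%) were higher in cortex. With the populations exchanged, the same threshold took 262 locus-tag probe sets for xylem and 291 for phloem. With the arrays as deposited the cortex group was thus the smallest of the 3, with 129 genes, or 132 with the left-out locus tags. Spike-in scaling raised the cortex group to 327, but the xylem and phloem groups were counted on the deposited values only.

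**Figure D1:**
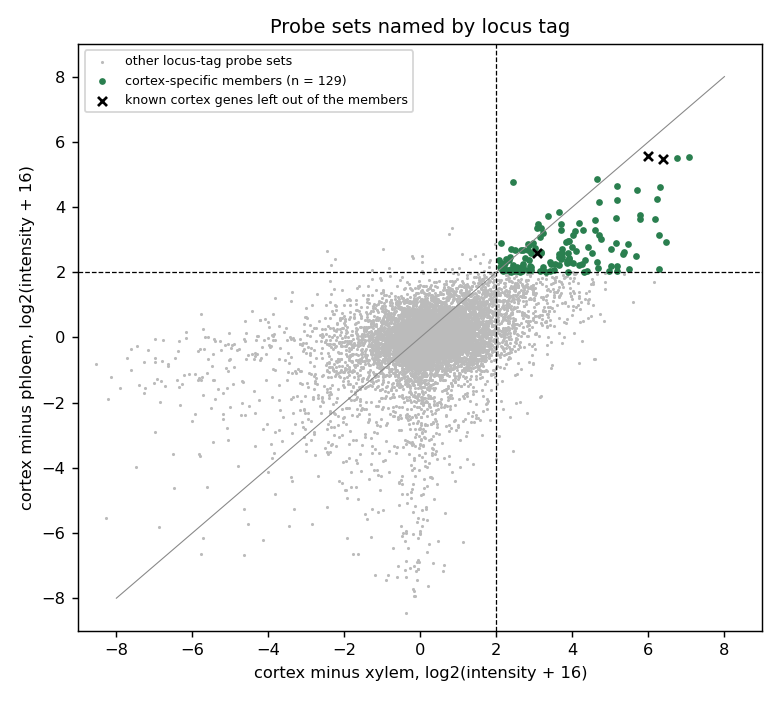
Each point is a probe set named by locus tag, placed by the cortex mean minus the xylem mean (x axis) and the cortex mean minus the phloem mean (y axis), both in log2(intensity + 16). The 129 members fill the corner beyond both dashed lines at 2. Of these, 109 lie below the diagonal, where cortex minus xylem is larger than cortex minus phloem, as do 6911 of all 11933 locus-tag probe sets.

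The members ran from dim to very bright in cortex. Their cortex means had a median of 9.37 on the log2(intensity + 16) scale and ran from 6.66 to 12.64, while the median of all probe sets in cortex was 6.29. None lay below the median of all probe sets, 53 lay above its 90th percentile and 6 above its 99th. In linear intensity the member means had a median of 666 in cortex, 29.5 in xylem and 82.2 in phloem. Together the members held 1.86% to 1.99% of the summed intensity of the cortex arrays, 0.102% to 0.125% of that of the xylem arrays and 0.292% to 0.305% of that of the phloem arrays. These levels and shares come from the values that the rule used and are a description only. A cortex mean at least 2 above both others, on a scale with a floor, also puts a lower limit on the cortex mean of every member. Every cortex array was above every xylem and phloem array in 129 of 129 members, as in 17.5% of all probe sets, a separation that the rule largely fixes.

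Only 4 members carry a gene name among the RefSeq synonyms, and these are a transporter, an enzyme of coumarin synthesis, a relative of a receptor kinase and an enzyme of lysine breakdown. AT3G21670, named NPF6.4, belongs to the NRT1/PTR family of membrane transporters, whose members carry nitrate, peptides and other small solutes. Its intensities were 631, 497 and 610.1 in cortex, 5.61, 11.4 and 6.82 in xylem and 2.80 and 6.21 in phloem. It was therefore well measured in every cortex array and lay under 16, the value added before taking logs, in every xylem and phloem array. Its cortex mean was higher by 4.64 than the xylem mean and by 4.86 than the phloem mean on the log2 scale.

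AT3G13610, named F6'H1, encodes feruloyl-CoA 6'-hydroxylase, which makes the precursor of the coumarin scopoletin. Root coumarins are secreted and help to mobilise iron in soil. F6'H1 had 416, 538 and 441 in cortex, 5.73, 4.31 and 2.06 in xylem and 14.9 and 33.9 in phloem. The cortex arrays lay close together, and the phloem arrays were above all xylem arrays. The cortex mean was higher by 4.58 than that of xylem and by 3.61 than that of phloem.

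AT1G08590, named PXL1 for PXY-like1, is related to PXY, the receptor kinase of vascular stem cells that perceives a CLE peptide made in phloem. PXL1 had 950.5, 725 and 738 in cortex, 42.1, 33.9 and 37.6 in xylem and 123 and 154 in phloem. Xylem was the lowest population, with no overlap with phloem, and the cortex mean exceeded those of xylem and phloem by 3.92 and 2.40. AT4G33150, named LKR/SDH, is the bifunctional enzyme that opens lysine breakdown. It had 1817, 2148 and 1676 in cortex, 332, 304 and 237 in xylem and 395 and 523 in phloem. Both vascular populations thus kept a clear signal, 15.5% and 24.4% of the mean cortex intensity in xylem and phloem, and LKR/SDH passed the rule close to its edge, with differences of 2.63 and 2.002.

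**Figure D2:**
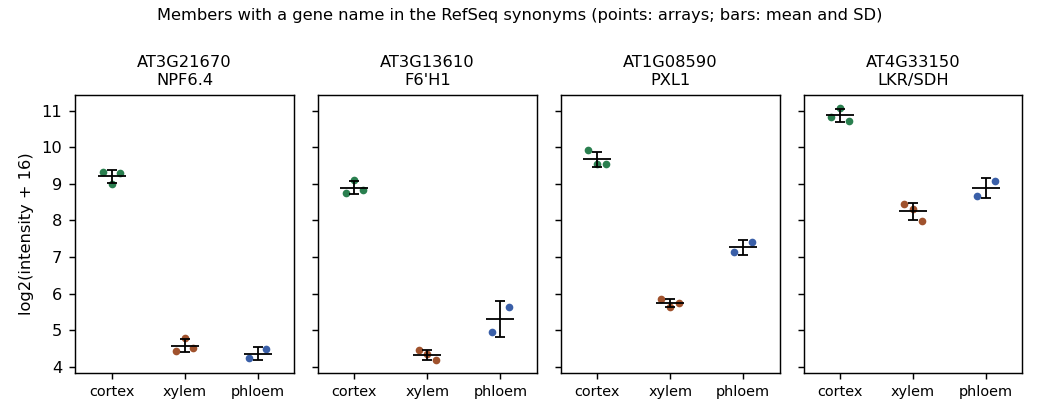
Values of the 4 members with a gene name, in log2(intensity + 16), with 1 point per array and the mean with its SD for cortex (n = 3), xylem (n = 3) and phloem (n = 2). NPF6.4 and F6'H1 sit near the bottom of the scale outside cortex, whereas LKR/SDH stands at 8.25 in xylem and 8.88 in phloem.

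The members with the widest margins follow, ranked by the smaller of their differences from xylem and phloem. This smaller difference had a median of 2.42 and reached 5.53, with 31 members at 3 or more, 9 at 4 or more and 2 at 5 or more. AT3G05150 led, with 2469.8, 2561 and 2533 in cortex, 1.38, 3.93 and 3.40 in xylem and 46.3 and 32.6 in phloem. Its cortex arrays differed by an SD of only 0.03 on the log2 scale, and its mean xylem intensity was 0.115% of that in cortex. AT5G11420 followed, with 2125, 1757 and 2033 in cortex, 1.86, 3.52 and 2.01 in xylem and 36.5 and 20.1 in phloem. For comparison, the known cortex markers AT1G62510 and AT1G09750, which were left out of the members, had smaller differences of 5.56 and 5.47.

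Next in this order, after NPF6.4, came AT1G76470, which had 1592, 1377 and 1175 in cortex, 26.0, 21.0 and 20.1 in xylem and 34.3 and 46.0 in phloem. AT2G45180 was brighter in all populations, with 4502, 4242 and 3666 in cortex, 28.0, 43.3 and 40.5 in xylem and 181 and 127 in phloem. AT5G62210 varied more among cortex arrays, with 1662, 1131 and 757, against 2.32, 14.1 and 3.28 in xylem and 46.4 and 24.0 in phloem. In each of these 3 genes the dimmest cortex array was far brighter than the brightest array of any other population.

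AT2G23910 had 3274, 2646 and 1902 in cortex, 23.3, 35.5 and 3.84 in xylem and 126 and 110.3 in phloem. AT5G65380 had 2417, 1975 and 2463 in cortex, 52.8, 36.7 and 55.6 in xylem and 126 and 93.5 in phloem. Its xylem minus phloem difference was -0.96 as deposited, but -0.36 and not called both after quantile normalization and after median centring. AT4G22460 had 2794, 3056 and 2099.9 in cortex, 24.0, 32.1 and 40.2 in xylem and 175 and 180.5 in phloem. With the arrays as deposited, all 3 showed a graded order, highest in cortex and lowest in xylem, with no overlap between phloem and xylem. AT3G32030 did not: it had 654, 689 and 654 in cortex, 9.10, 25.5 and 1.79 in xylem and 24.9 and 20.5 in phloem, so that phloem and xylem overlapped. Its probe set, the only 1 of the 129 with the ending _s_at, can bind transcripts of related genes, so this signal is uncertain as that of AT3G32030 alone.

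**Figure D3:**
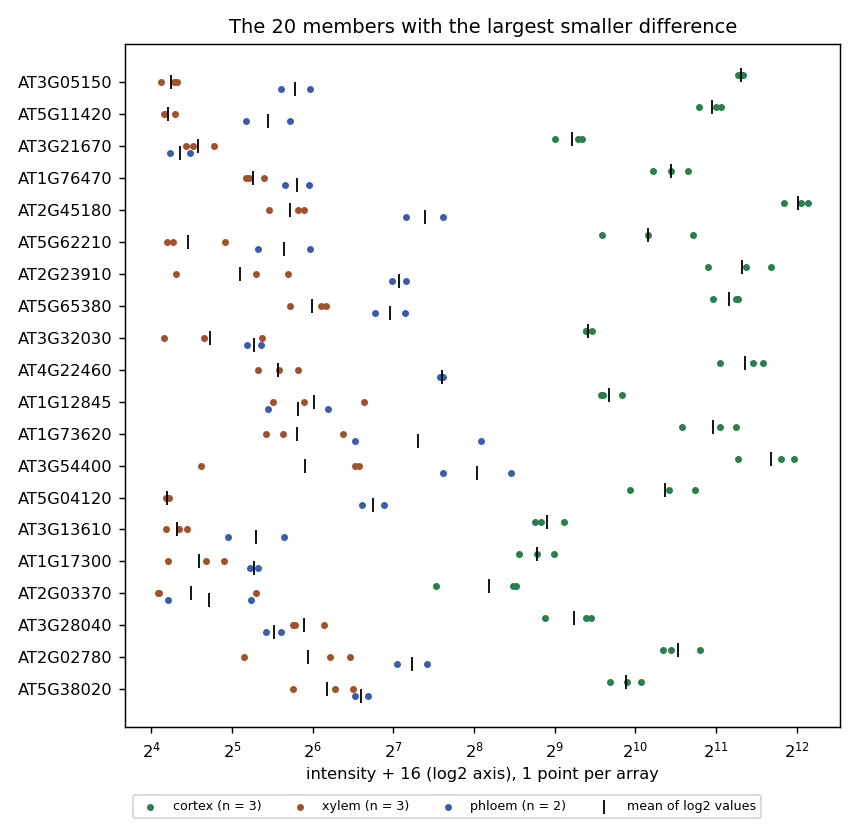
Intensity + 16 on a log2 axis for the 20 members with the largest smaller difference, with 1 point per array (cortex n = 3, xylem n = 3, phloem n = 2) and a bar at the mean of the log2 values. The cortex points stand clear of all others in every gene, and the phloem points lie to the right of the xylem points in genes such as AT4G22460 and AT5G04120 but not in AT1G12845 or AT3G28040.

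The remaining genes among these 20 had cortex means from 8.18 for AT2G03370 to 11.68 for AT3G54400. AT5G04120 was among the sharpest between the vascular populations, with 964, 1358 and 1690.0 in cortex, 2.54, 2.37 and 2.12 in xylem and 102 and 81.5 in phloem. AT1G12845 and AT3G28040 did not pass the test between xylem and phloem, with differences of 0.20 (SE 0.34) and 0.38 (SE 0.24) with the arrays as deposited. The value of AT1G12845 was -0.16 after spike-in scaling. AT3G28040 was called higher in xylem after quantile normalization (0.91) and median centring (0.99). AT1G73620 rested on uneven phloem arrays of 257 and 76.3, and AT3G54400 on an uneven xylem set of 75.9, 8.46 and 79.2. AT1G17300, AT2G03370, AT2G02780 and AT5G38020 completed the 20, with smaller differences of 3.51, 3.47, 3.30 and 3.28.

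Another way to order the members is by their cortex mean on the log2(intensity + 16) scale. AT1G62660 came first, with 6035, 6689.6 and 6357 in cortex, 226, 148 and 173 in xylem and 975 and 919.7 in phloem. AT4G30170 followed, with 5465, 7481 and 6213 in cortex, 61.9, 95.9 and 46.7 in xylem and 1471 and 1486 in phloem. By the mean linear intensity in cortex their order was the opposite, with 6386 for AT4G30170 and 6360.5 for AT1G62660. Both were among the 100 brightest probe sets of the cortex arrays. AT1G11670 had 3175, 5149 and 4271 in cortex, 67.4, 75.3 and 87.8 in xylem and 944 and 938 in phloem. AT5G42250 had 3657, 4229 and 3977 in cortex, 51.7, 10.1 and 34.6 in xylem and 449 and 577 in phloem. Of the 5 brightest, which include AT2G45180, these 4 kept between 449 and 1486 in the phloem arrays and at most 226 in any xylem array.

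How far the signal outside cortex could be measured divided the members into 3 classes. In 16 members both vascular means lay under 5 on the log2 scale, the level of an intensity of 16, where the files do not show that a signal exceeds background. NPF6.4, AT2G03370, AT1G64910 and AT5G13140 were the brightest of these in cortex, and the cortex means of the class ran from 6.66 to 9.21. In 28 members only the xylem mean lay under that level, led by AT3G05150, AT5G11420, AT5G36160 and AT5G04120. No member had only the phloem mean under it, and in 85 members both means were above it. Those leading genes were chosen after their values were seen.

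The contrast between xylem and phloem was the only pair of populations whose direction the rule did not fix, although it uses the same arrays. With limma across all 22746 probe sets and Benjamini-Hochberg adjustment, 70 of 129 members (54.3%) were lower in xylem than in phloem at an adjusted p under 0.05, and 1 member (0.775%) was higher. Among all probe sets 28.5% were lower and 13.9% higher in xylem. Among the 10181 probe sets at least as bright in cortex as the dimmest member, 38.6% were lower and 21.3% higher. By the classes above, 21 of the 28 members with only the xylem mean under an intensity of 16 were called lower in xylem. So were 49 of the 85 with both means above that level and 0 of the 16 with both under it. These classes were cut on the same xylem and phloem means that the contrast compares. All 28 thus had a negative difference by definition, and the 16 had little room to differ, so this breakdown is a description only. The median difference of the members was -0.94 on the log2 scale, against -0.15 over all probe sets. It was below 0 in 109 of 129 members, against 13461 of all 22746 probe sets. Among the 10181 probe sets as bright in cortex it was below 0 in 6102.

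The size of that split depended on how arrays were scaled. After median centring 43 members were lower in xylem and 11 higher, against 16.5% and 40.9% of all probe sets. After quantile normalization 45 were lower and 4 higher, against 20.2% and 22% of all. After spike-in scaling 84 were lower and 1 higher, against 38.5% and 7.59% of all. The median of all probe sets stood at 0.46, 0.08 and -0.43 under these scalings. Relative to it, the members' median was -0.79 on the deposited values. Quantile normalization gave -0.59, spike-in scaling -0.71 and trimmed means -0.80, while median centring shifts members and all probe sets alike. The number called lower in xylem under every scaling was 43.

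**Figure D4:**
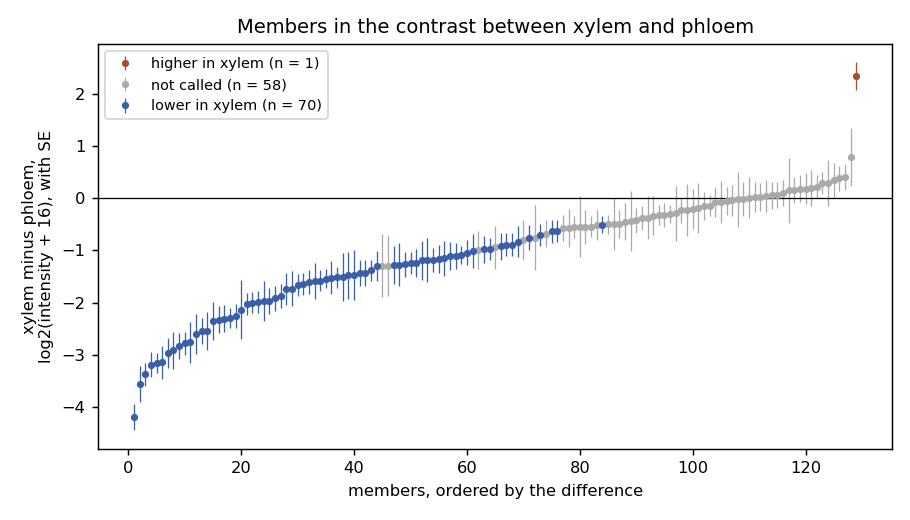
The xylem minus phloem difference of each of the 129 members in log2(intensity + 16), with its SE from limma, ordered from the most negative to the most positive. The differences run from -4.19 for AT4G30170 to 2.33 for AT3G55720, with 70 members called lower in xylem, 58 not called and 1 called higher.

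AT4G30170 had the largest difference, -4.19 (SE 0.25, limma adjusted p = 3.89e-06), from the intensities given above. AT5G42250 stood at -3.55 (SE 0.35, limma adjusted p = 6.67e-05) and AT1G11670 at -3.37 (SE 0.22, limma adjusted p = 6.01e-06). AT5G20110 had 1184, 1201 and 744 in cortex, 2.42, 6.16 and 4.13 in xylem and 167 and 169 in phloem, a difference of -3.19 (SE 0.24, limma adjusted p = 1.46e-05). AT5G36160 had 1581, 1624 and 1410.2 in cortex, 6.49, 1.28 and 4.17 in xylem and 184 and 140.2 in phloem, a difference of -3.15 (SE 0.20, limma adjusted p = 5.37e-06). In all 5 genes the phloem arrays lay far above the xylem arrays and below the cortex arrays, the latter largely fixed by the rule. AT4G30170 and AT1G11670 lay near its threshold, with cortex minus phloem at 2.09 and 2.11. Neither stayed in the group under every alternative setting. Called differences of 1 or more in this direction were seen in 59 members, of 2 or more in 21 and of 3 or more in 6. These counts are given without the shares of all probe sets at the same sizes, so they describe the members alone.

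The exception was AT3G55720, the only member called higher in xylem than in phloem with the arrays as deposited. It had 1156, 1213 and 1214 in cortex, 213, 285 and 150.2 in xylem and 21.4 and 37.5 in phloem, a difference of 2.33 (SE 0.26, limma adjusted p = 0.000146). Every xylem array was above both phloem arrays. AT3G56200, the next highest member by this difference, stood at 0.78 (SE 0.55, limma adjusted p = 0.296), and its xylem arrays were uneven at 519, 114 and 513. It is named here after its values were seen.

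Of the named genes, PXL1 fell below phloem in xylem, at -1.52 (SE 0.20, limma adjusted p = 0.000316) and F6'H1 at -0.97 (SE 0.26, limma adjusted p = 0.0145). F6'H1 lay under 16 in every xylem array and in phloem replicate 1, at 14.9. LKR/SDH differed by -0.63 (SE 0.21, limma adjusted p = 0.0374). NPF6.4 differed by 0.22 (SE 0.22, limma adjusted p = 0.472), at levels where neither population was shown to exceed background. The F6'H1 call was lost under 4 of 18 alternative settings, among them leaving out phloem replicate 2, where the difference was -0.63. That of LKR/SDH was lost under 7, among them leaving out cortex replicate 1, xylem replicate 3 or phloem replicate 2, and after median centring its difference was -0.02. NPF6.4 was called higher in xylem after median centring, at 0.83.

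By brightness, of 42 members with a cortex mean of 10 or more, 32 were lower in xylem, 1 higher and 9 not called, with a median difference of -1.70. Among all 1831 probe sets with a cortex mean of 10 or more, 39.7% were lower and 22.9% higher, with a median of -0.34. Of 87 dimmer members 38 were lower in xylem (43.7%), 0 higher and 49 not called, with a median of -0.58. Among the 8350 probe sets in the same range of cortex means, 38.3% were lower and 20.9% higher, with a median of -0.33. The 16 members with both vascular means under an intensity of 16 are among these 87, and 0 of the 16 were called. Whether the bright and the dim members differ was not tested. Of the 29 probe sets with a symbol that passed the rule, 13 were lower in xylem (44.8%) and 0 higher. Of the 168 without a listed gene, 104 were lower (61.9%) and 4 higher. Over all probe sets 28.5% were lower and 13.9% higher. Among those at least as bright in cortex as the dimmest member the shares were 38.6% and 21.3%. Whether the shares of these groups differ from each other or from that of the members was not tested.

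Cortex arrays lay close together for most members but not for all, and xylem arrays less so. The SD over cortex arrays had a median of 0.24 on the log2 scale, against 0.19 over all probe sets, and was under 0.5 in 110 members. Over xylem arrays the median SD was 0.33, against 0.27 over all probe sets, and 90 members were under 0.5 and 6 at 1 or more. Over phloem arrays it was 0.16, as over all probe sets, with 117 members under 0.5. In 59 members cortex replicate 1 was the highest cortex array, in 44 replicate 2 and in 26 replicate 3. The median deviation of replicate 3 from the cortex mean was -0.12 over members and -0.01 over all probe sets.

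The 3 members with the largest cortex SD varied over several-fold. AT2G22590 had 250.5, 133 and 36.5 in cortex, 4.13, 25.6 and 14.5 in xylem and 19.6 and 3.76 in phloem, so that its lowest cortex array was close to its highest xylem array. AT5G27930 had 159.7, 435 and 817 in cortex, 37.3, 39.6 and 41.8 in xylem and 41.5 and 39.3 in phloem. AT1G66760 had 148, 543 and 691 in cortex, 36.6, 5.29 and 9.92 in xylem and 59.8 and 58.5 in phloem. AT5G27930 and AT1G66760 were thus lowest in cortex replicate 1, and AT2G22590 was lowest in replicate 3. A gene from the list of wound and protoplasting markers, AT5G52050, had 86.7, 305 and 654 in the same cortex arrays. STZ, the other measured gene of that list, had 1797, 2983 and 2676 there, without a rise from replicate 2 to replicate 3. That list, with 2 of 6 genes measured, summed to 1884 to 3330 in cortex, 1483 to 2661 in xylem and 4437 to 4592 in phloem. Its part in the values of these members was not tested.

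Some members are neighbours on a chromosome, in the gene order of RefSeq assembly TAIR10.1. Of the 129 genes, 8 formed 4 pairs with no other protein-coding gene between, and a further 5 pairs had 1 to 4 genes between. AT1G64910 had 358, 253 and 172 in cortex, 8.95, 15.5 and 12.6 in xylem and 13.7 and 12.4 in phloem. Its neighbour AT1G64920 had 965, 621 and 462 in cortex, 8.29, 5.49 and 16.1 in xylem and 78.8 and 45.7 in phloem. Cortex replicate 1 was the highest cortex array and replicate 3 the lowest in both genes, and signal above 16 in both phloem arrays was seen in AT1G64920 alone.

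NPF6.4 lies next to AT3G21680, which had 368, 263 and 266 in cortex, 0.617, 1.59 and 1.38 in xylem and 39.7 and 64.5 in phloem. These neighbours differed in phloem, where AT3G21680 was above 16 in both arrays and NPF6.4 in neither. AT5G38020, with 940.1, 1057 and 809 in cortex, 37.9, 74.5 and 61.5 in xylem and 87.0 and 75.8 in phloem, lies beside AT5G38030. That neighbour had 339, 509 and 356 in cortex, 22.1, 18.3 and 10.4 in xylem and 49.5 and 58.6 in phloem. Both kept a low signal in phloem. AT5G59530 had 141, 202 and 201 in cortex, 17.7, 8.44 and 5.60 in xylem and 22.1 and 40.9 in phloem. AT5G59540, beside it, was brighter, with 1080.1, 1374 and 918 in cortex, 2.85, 33.8 and 5.55 in xylem and 152 and 186 in phloem. The xylem minus phloem differences were -1.58 in AT1G64920 and -0.04 in AT1G64910, and -1.96 in AT3G21680 and 0.22 in NPF6.4. They were -2.76 in AT5G59540 and -0.83 in AT5G59530, whose call was lost under 10 alternative settings, with a value of -0.23 after median centring. In the remaining pair they were -1.10 in AT5G38030 and -0.43 in AT5G38020. Whether the differences of 2 neighbours were unlike was not tested.

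With the genes of these pairs included, 95 members had a measured immediate neighbour. Of 119 such neighbours that were not members, 49 (41.2%) had their highest mean in cortex, against 36.3% of 12262 single-gene probe sets placed in the gene order. Smaller differences of 1 or more were found in 8 of them (6.72%), against 5.99% of all those placed. Neighbours that were not members were thus near the background in both counts. Both counts leave out the 8 members in adjacent pairs, whereas the probe sets placed include those that passed the rule. They do not show whether members as a whole lie near each other more often than other genes.

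For 2 members a further probe set was listed for the same gene. AT3G44510 had 435, 376 and 258 in cortex, 43.7, 33.9 and 25.9 in xylem and 50.4 and 59.3 in phloem on the probe set that passed the rule. Its other probe set gave 118, 104 and 67.8 in cortex, 17.9, 2.44 and 22.7 in xylem and 30.0 and 3.92 in phloem, with a smaller difference of 1.87, so both ran the same way. AT3G26590 had 260.0, 265 and 227 in cortex, 2.15, 0.837 and 3.68 in xylem and 36.2 and 40.3 in phloem on its member probe set. Its other probe set gave 27.4, 30.5 and 33.1 in cortex, 5.39, 4.84 and 12.2 in xylem and 30.5 and 30.9 in phloem. There cortex and phloem overlapped, with a difference of -0.01, so the cortex-specific pattern of AT3G26590 rests on 1 of its 2 probe sets.

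The edge of the group was not a gap in the data. The 3 members just inside the threshold were AT1G67750, LKR/SDH and AT3G22540, with smaller differences of 2.01, 2.002 and 2.002. Just outside lay AT5G49760, AT1G02260 and AT1G22440, with 1.998, 1.99 and 1.99. In AT1G22440 the intensities were 2823, 2711 and 2546 in cortex, 78.8, 57.0 and 101.2 in xylem and 714 and 624 in phloem, above those of most members. Smaller differences under 2.1 were held by 27 members, and 21 locus-tag probe sets lay between 1.9 and 2.

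With the rule reapplied under each of the 4 scalings, 90 of the 129 genes stayed in the group, and when each array in turn was left out 87 stayed throughout. Among the 20 with the largest smaller difference, all 20 stayed under every scaling. Only 55 of the 129 stayed under all scalings, pseudocounts, array omissions and the filter on dim probe sets, among them 18 of those 20. That filter removed probe sets before the rule was applied and kept 102 of the 129, so the genes it removed count as not staying. NPF6.4 and AT2G03370, the genes among those 20 that did not stay throughout, were removed by it.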

How the data were processed

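Linear array intensities, 1 per probe set and array, were deposited by the authors and made with MAS5, per the submitters' processing notes. No source used here gives its version or scaling target. Per the labels' protocols, cRNA came from a 2-cycle amplification. The table holds no detection calls and gives no depth, so precision is limited by how many arrays there are. The 64 control probe sets were left out.

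Intensities were transformed to log2(value + 16) with no other scaling. The limma package (version 3.58.1, in R 4.3.3) fitted 1 mean per population over all 8 arrays and an intensity trend (5 residual degrees of freedom). Adjusted p-values are Benjamini-Hochberg values over 22746 probe sets, with a threshold of 0.05. The fit was tested on simulated data. Fold changes on this scale understate those of dim probe sets.

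Genes were named from the platform annotation and a RefSeq table of TAIR10.1, which matched 127 members by gene ID and 2 by locus tag. These tables give no product names and no sequences, so the planned grouping by product, and protein and promoter features, were not made. No coordinates are printed, since no build is given for the array.

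Named genes were the 20 with the largest smaller difference, those next to the threshold, the most extreme called xylem minus phloem differences (5 each way where so many existed), the 5 brightest, the 3 with the largest cortex SD, adjacent members, and those with a second probe set. Genes with a RefSeq name were added. The members, lists and tests were chosen with earlier results of these data known. Plots used Python 3.11.15 and matplotlib 3.10.9. Alternatives covered pseudocounts, scalings, filters, the trend, a replicate block and leaving out each array.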

Additional observations from a re-analysis of the deposited data

How the results depend on the processing

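The number of genes taken by the rule was 129, and 200 with a pseudocount of 1, 66 with a pseudocount of 64 and 327 after spike-in scaling; with 1 array left out it ran from 123 to 137. Of the 129, 114 passed again after quantile normalization, 110 after median centring and 98 after trimmed-mean scaling. Members lower in xylem than in phloem numbered 70, but 45 after quantile normalization and 43 after median centring, and 51 to 68 with 1 array left out. Without a phloem replicate, the single phloem array that remained had to borrow its spread from xylem and cortex. Members higher in xylem numbered 1, but 4 and 11 under those 2 scalings and 1 to 2 with 1 array left out: 2 without xylem replicate 2 and 2 without phloem replicate 1. Over all probe sets 3163 were higher in xylem, and 5002 after quantile normalization, 1727 after spike-in scaling and 9305 after median centring, with 2126 to 3638 when 1 array was left out. Those lower numbered 6476, and 3764 after median centring, with 4770 to 6566 when 1 array was left out. The cause of these shifts was not tested. Of 713 xylem minus phloem results for single named genes, 628 kept their direction and stayed called or uncalled, 49 lost a call and 14 gained one. The remaining 22, in 8 genes, changed sign, and none of these was called either way. After quantile normalization AT5G38020 stood at 0.23, AT5G27930 at 0.52 and AT1G64910 at 0.25. After median centring AT1G76470 stood at 0.064, AT3G32030 at 0.063, AT2G03370 at 0.38, AT5G38020 at 0.18, AT5G27930 at 0.59 and AT1G64910 at 0.57. After spike-in scaling AT1G12845 stood at -0.16 and AT2G22590 at -0.067, and after trimmed-mean scaling AT5G27930 at 0.042 and AT1G64910 at 0.0055. With 1 array left out the ranges were -0.17 to 0.57 in AT1G12845, -0.74 to 0.29 in AT2G03370, -0.27 to 0.58 in AT2G22590, -0.050 to 0.0080 in AT5G27930 and -0.12 to 0.049 in AT1G64910.

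Replicate numbers are shared between populations, but same-numbered arrays deviated together with r of only -0.10, -0.04 and 0.15 for cortex and xylem, -0.0012 and -0.03 for cortex and phloem, and 0.13 and 0.15 for xylem and phloem, so the numbers were not taken as pairs. With the replicate number as a block, 63 members were lower and 1 higher in xylem, and 6114 and 3000 of all probe sets, and AT1G64910 stood at 0.081.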

Other observations

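The members were spread over all 5 chromosomes, as read from their locus tags: 32 on chromosome 1, 19 on chromosome 2, 31 on chromosome 3, 19 on chromosome 4 and 28 on chromosome 5. These were 1.03%, 0.965%, 1.27%, 1.10% and 1.04% of the locus-tag probe sets of each chromosome. All 129 are listed as genes in the RefSeq table, with a median gene length of 2313 bases (quartiles 1711 and 3271), against 2090 bases (quartiles 1374 and 3027) over locus-tag probe sets with a length. These features were described without a test.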
